A study of Mus musculus with 75 samples.

Results

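The genes followed here are 10 epithelial genes of the mouse lung, 6 that mark transitional alveolar epithelial cells (*Krt8*, *Krt18*, *Krt19*, *Cldn4*, *Sfn* and *Sprr1a*) and 4 that mark airway basal cells (*Krt5*, *Krt14*, *Krt17* and *Trp63*). They were chosen by symbol, with earlier results of these data known, as 10 of the 55536 genes of the count table, and all of them were found in it. The RNA came from right inferior lung lobes of 75 male C57BL/6JRj mice, with 1 library per mouse. The mice were 12 to 14 weeks old when bleomycin was given, so that age at sampling rose with the day and cannot be told apart from it. Bleomycin-induced idiopathic pulmonary fibrosis (BLEO-IPF) mice received bleomycin sulphate once into the trachea and were killed on day 7 (10 mice), 14, 21, 28, 35 (12 mice each) or 42 (7 mice). The 10 control mice (CTRL) are listed with the treatment saline in the sample labels, whereas the treatment protocol calls the controls untreated, and the labels give no day for them. Bleomycin mice entered a group only if their weight loss was mild to moderate, and the lungs had been rinsed for lavage fluid before the lobe was taken.

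Keratins are the intermediate filament proteins of epithelium, and a filament is built from pairs of 1 type I and 1 type II keratin. *Krt8* (type II) pairs with *Krt18* and *Krt19* (type I) in simple epithelium, whereas *Krt5* (type II) pairs with *Krt14* (type I) in basal cells. After alveolar injury, AT2 cells, the surfactant-producing stem cells of the alveolus, are known to pass through a *Krt8*-high transitional state on their way to flat AT1 cells, the gas exchange cells. After severe injury, *Krt5*-positive *Trp63*-positive cells from the airways are also known to move into damaged alveoli and form patches. These are background facts, and in RNA from a whole lobe more cells of a type and more RNA per cell cannot be told apart.

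Total counts per library were 9240291 to 14665247, with a median of 10677163, and 16221 genes passed the filter on low counts. Values are CPM, counts scaled to a common library size with TMM factors, and tests are the edgeR quasi-likelihood F test over these genes with Benjamini-Hochberg adjustment at 0.05, which compares the mice of 2 groups. *Krt5*, *Krt14* and *Krt17* passed the filter because of the late days, since fits of single days against CTRL mostly left them untested, so that passing it is no result.

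*Krt8* (ENSMUSG00000049382, GRCm38, chr15:101996698-102004482, minus strand) and *Krt18* (ENSMUSG00000023043, chr15:102028180-102032027, plus strand) are neighbours that are read away from each other, with 23698 bases between their starts. *Krt5* (ENSMUSG00000061527, chr15:101707070-101712898) lies in the same type II cluster. *Krt19* (ENSMUSG00000020911, chr11:100140810-100148665), *Krt14* (ENSMUSG00000045545, chr11:100203162-100207548) and *Krt17* (ENSMUSG00000035557, chr11:100256217-100261029) lie in the type I cluster. The other genes were *Cldn4* (ENSMUSG00000047501, chr5:134945119-134946934), *Sfn* (ENSMUSG00000047281, chr4:133600556-133602168), *Sprr1a* (ENSMUSG00000050359, chr3:92483952-92485895) and *Trp63* (ENSMUSG00000022510, chr16:25683763-25892102). Counts cover the exons of each gene. *Krt8* overlaps a noncoding gene on the opposite strand that held 0.184% as many counts as *Krt8*, and a *Krt8* pseudogene held at most 15 counts in a library.

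RefSeq promoter windows (GRCm38.p6) were available for 7 of the 10 genes. The 5 shown are those of the transitional genes that were above CTRL on every day, cut before the first annotated exon and printed 5′ to 3′. Capitals mark matches on either strand to the letters of 4 motifs, which are TGANTCA for the AP-1 site, TATAAA for the TATA box, CCAAT for the CCAAT box and GGGCGG for the GC box. The letters GGAATG of the TEAD site were searched as well and are in none of the 5 sequences.
Krt8 (chr15:102004483-102004592, minus strand): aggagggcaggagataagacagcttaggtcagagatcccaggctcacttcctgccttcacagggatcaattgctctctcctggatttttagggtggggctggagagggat
Krt18 (chr15:102027966-102028179, plus strand): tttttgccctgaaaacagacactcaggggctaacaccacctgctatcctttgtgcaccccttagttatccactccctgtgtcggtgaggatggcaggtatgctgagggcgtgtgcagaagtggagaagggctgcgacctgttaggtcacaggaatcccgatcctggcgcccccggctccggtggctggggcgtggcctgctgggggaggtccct
Cldn4 (chr5:134946935-134947184, minus strand): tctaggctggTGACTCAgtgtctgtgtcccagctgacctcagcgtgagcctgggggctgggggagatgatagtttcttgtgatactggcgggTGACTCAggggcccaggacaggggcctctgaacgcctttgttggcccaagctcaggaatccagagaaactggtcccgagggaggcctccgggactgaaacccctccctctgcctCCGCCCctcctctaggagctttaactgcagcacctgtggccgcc
Sfn (chr4:133602169-133602418, minus strand): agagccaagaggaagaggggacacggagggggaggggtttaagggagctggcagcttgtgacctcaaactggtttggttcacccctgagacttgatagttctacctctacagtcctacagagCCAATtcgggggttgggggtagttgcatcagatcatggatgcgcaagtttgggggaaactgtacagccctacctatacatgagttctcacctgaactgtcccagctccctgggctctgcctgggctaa
Sprr1a (chr3:92485896-92486131, minus strand): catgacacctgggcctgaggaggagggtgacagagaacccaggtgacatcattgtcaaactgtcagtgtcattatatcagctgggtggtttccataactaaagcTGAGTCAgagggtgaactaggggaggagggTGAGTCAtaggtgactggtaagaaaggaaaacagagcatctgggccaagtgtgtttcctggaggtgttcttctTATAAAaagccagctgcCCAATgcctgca
The AP-1 letters were present 2 times each before *Cldn4* and *Sprr1a*, at 240 and 158 bases before the RefSeq start of *Cldn4* and at 146 and 116 bases before that of *Sprr1a*. They were in none of the other 5 windows. Over all 32851 promoter windows of 300 bases, 7.81% held the AP-1 letters, 13.6% those of the TATA box, 37.4% the CCAAT box, 35.7% the GC box and 14.7% the TEAD site. A match describes the sequence and was not tested as a binding site.

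Per length of exon, the simple keratins were the most abundant members in every group. In CTRL mice the mean level was 101 ± 12.9 CPM per kb for *Krt19*, 75.9 ± 5.71 for *Krt18* and 74.6 ± 10.1 for *Krt8* (SD, n = 10), the last 2 of which differed by less than their SD. Much lower came *Sfn* at 6.13 ± 0.767, *Cldn4* at 3.37 ± 0.694, *Sprr1a* at 0.445 ± 0.360, *Krt14* at 0.303 ± 0.159, *Trp63* at 0.110 ± 0.028 and *Krt5* at 0.013 ± 0.020 CPM per kb, and *Krt17* had no count. On day 7, *Sprr1a* at 27.4 ± 7.50, *Sfn* at 26.8 ± 6.65 and *Cldn4* at 25.9 ± 5.95 CPM per kb (n = 10) were level within their SD. On day 42, *Krt5* at 2.16 ± 2.50 CPM per kb (n = 7) stood between *Sprr1a* at 4.69 ± 2.63 and *Krt14* at 1.05 ± 0.966, and these neighbours overlapped between mice.

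*Krt8*, the type II keratin of simple epithelium, was highest on day 7 and stayed above CTRL on all days. CTRL mice lay between 119 and 175 CPM with a median of 146 CPM. On day 7 the lowest mouse had 220.5, the median 292 and the highest 392 CPM, and on day 14 these values were 179, 211 and 297 CPM, so that neither day overlapped with CTRL. The lowest, median and highest mice of day 21 had 158, 209.7 and 327 CPM, and those of day 28 had 112, 169 and 277 CPM. They had 146, 192 and 256 CPM at day 35 and 138, 195 and 226 CPM at day 42. These 4 days overlapped with CTRL. The log2FC against CTRL was 1.01 ± 0.12 on day 7 (SE, adjusted p = 3.15e-10), then 0.60, 0.59, 0.36 and 0.40 for days 14 to 35, and 0.39 ± 0.13 on day 42 (adjusted p = 0.0234), and each of them passed the test. The day 42 call was lost without day 42 mouse 1 (log2FC 0.35, adjusted p = 0.0595) or without mouse 7 (0.35, adjusted p = 0.0585).

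*Krt18*, its type I partner, followed the same course. Its CTRL mice had 97.0 to 123 CPM with a median of 108 CPM, and the medians of days 7 to 42 were 217, 165, 158, 130.0, 149.5 and 142 CPM. The mice of days 7, 14, 21 and 35 were all above the highest CTRL mouse, whereas 9 of 12 mice on day 28 and 6 of 7 on day 42 were. The log2FC was 1.03 ± 0.11 on day 7 (adjusted p = 2.45e-11) and 0.38 ± 0.12 on day 42 (adjusted p = 0.017), and every day between passed the test. The log2 ratio of *Krt8* to *Krt18*, from CPM + 0.5, was 0.41 ± 0.12 in CTRL mice (SD, n = 10) and between 0.36 and 0.42 on the 6 days. No day's ratio differed detectably from CTRL, with adjusted p-values between 0.354 and 0.971 in two-sided permutation tests (exact for day 42) among 18 ratio tests.

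*Krt19*, a type I keratin without a tail domain that is also present in airway and AT1 cells, was higher on day 7 only by the test. Its CTRL range was 149 to 224 CPM with a median of 185 CPM, against 201 to 507 CPM with a median of 325 CPM on day 7, and 9 of 10 mice were above the CTRL range. The day 7 log2FC was 0.80 ± 0.12 (adjusted p = 1.05e-07). On days 14 to 42 the medians were 191, 197, 167, 191 and 197 CPM, and the log2FC lay between -0.08 and 0.12 with adjusted p-values of 0.386 to 0.944. *Krt19* also fell from day 7 to day 14 by 0.69 on the log2 scale (adjusted p = 1.84e-05), as did *Krt8* by 0.41 (adjusted p = 0.00812) and *Krt18* by 0.42 (adjusted p = 0.00347).

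**Figure D1:**
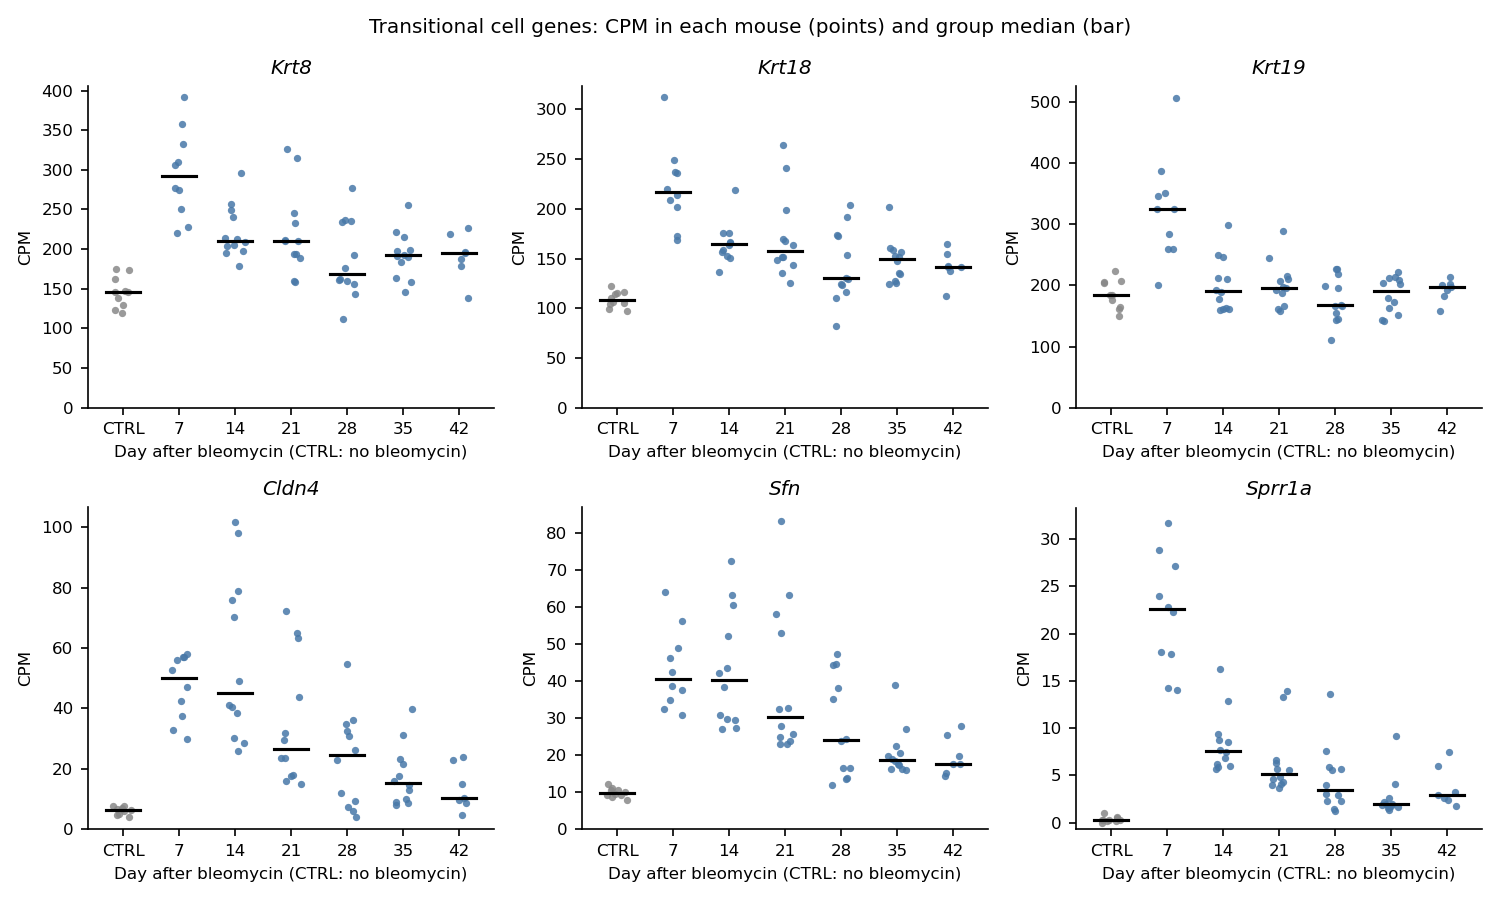
CPM of the 6 transitional cell genes (vertical axes, linear) in each mouse, by group (horizontal axis: CTRL and the day after bleomycin), with a bar at the group median. *Krt19* is raised on day 7 only, while *Sprr1a* goes from a CTRL median of 0.282 CPM to 22.6 CPM on day 7 and 2.91 CPM on day 42.

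*Cldn4*, a tight junction protein, had the largest log2FC of the 6 transitional genes after *Sprr1a* on every day. CTRL mice had 4.05 to 7.64 CPM with a median of 6.42 CPM. The lowest, median and highest mice had 29.8, 49.9 and 58.1 CPM on day 7, and 25.98, 45.01 and 102 CPM at day 14. They had 15.1, 26.5 and 72.1 CPM at day 21 and 3.91, 24.5 and 54.7 CPM at day 28. At day 35 the values were 7.96, 15.3 and 39.7 CPM, and at day 42 they were 4.72, 10.3 and 23.7 CPM. The groups of days 7, 14, 21 and 35 did not overlap with CTRL, whereas 3 of the 12 mice on day 28 and 1 of the 7 on day 42 lay inside the CTRL range or below it. The log2FC was 3.21 ± 0.35 on day 14 (9.27-fold, adjusted p = 4.85e-12) and 1.15 ± 0.39 on day 42 (2.22-fold, adjusted p = 0.0228). The latter call was lost without day 42 mouse 1 (0.97, adjusted p = 0.0714) or mouse 7 (0.95, adjusted p = 0.0829).

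*Sfn*, which encodes the 14-3-3 sigma protein of stratified epithelium and of p53 responses, was raised by similar amounts on days 7, 14 and 21, which differed by less than the SE. Its CTRL mice had 7.79 to 12.1 CPM with a median of 9.86 CPM, and the medians of days 7 to 42 were 40.5, 40.4, 30.1, 24.1, 18.6 and 17.6 CPM. All mice of every day were above the CTRL range except 1 on day 28. The log2FC was 2.13 ± 0.24, 2.12 ± 0.23 and 1.99 ± 0.23 on these days and 0.99 ± 0.26 on day 42 (adjusted p = 0.00286), and all days passed the test.

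*Sprr1a*, a small proline-rich protein of the cornified envelope that is also induced by injury, had the largest log2FC of the 6 transitional genes on every day. CTRL mice had 0 to 10 counts (0.282 CPM in the median mouse and 1.04 CPM in the highest). The lowest, median and highest mice had 14.0, 22.6 and 31.7 CPM on day 7, 5.66, 7.58 and 16.3 CPM at day 14, and 1.80, 2.91 and 7.51 CPM on day 42. No mouse of any day overlapped with CTRL. The log2FC was 5.93 ± 0.41 on day 7 (60.8-fold, adjusted p = 1.4e-19), fell to 2.87 ± 0.43 on day 35 and was 3.37 ± 0.45 on day 42 (10.4-fold, adjusted p = 4.59e-08). The fall from day 7 to day 14 was 1.38 ± 0.28 on the log2 scale (adjusted p = 0.000321).

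Counted over the 6 transitional and 4 basal genes, 6 of the 10 were higher than CTRL on day 7 (24.8% of all tested genes), all of them transitional. On day 14 it was 6 (32.4%), 5 transitional genes and *Krt17*. On days 21, 28 and 35 it was 9 each (28.3%, 24.1% and 16.9%), all but *Krt19*, and on day 42 it was 8 (13.7%), all but *Krt19* and *Krt14*. These counts include *Krt5* and *Krt17*, and *Krt14* where called, which entered the test through the late days. Without the filter on low counts the numbers were 6, 6, 9, 8, 9 and 8 for days 7 to 42. None of the 10 was lower than CTRL on days 7, 14, 21, 28, 35 or 42, where 21%, 29.9%, 25.8%, 19.2%, 13.1% and 11% of all tested genes were. The median log2FC of the 6 transitional genes went from 1.58 on day 7 through 1.36, 1.32, 0.93 and 0.75 to 0.69 on day 42, while that of all tested genes stayed within 0.02 of 0. All mice of the day lay above all CTRL mice for 5 members at day 7 (7.39% of all tested genes) and 6 at day 14 (9.46%). The numbers were 4 at day 21 (6.84%), 1 at day 28 (2.1%), 4 at day 35 (2.43%) and 3 at day 42 (4.22%). On day 28 the single gene was *Sprr1a*. The numbers of days 14 and 42 include *Krt17*, which had 0 counts in CTRL and 1 count in the lowest mouse of each of these days.

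**Figure D2:**
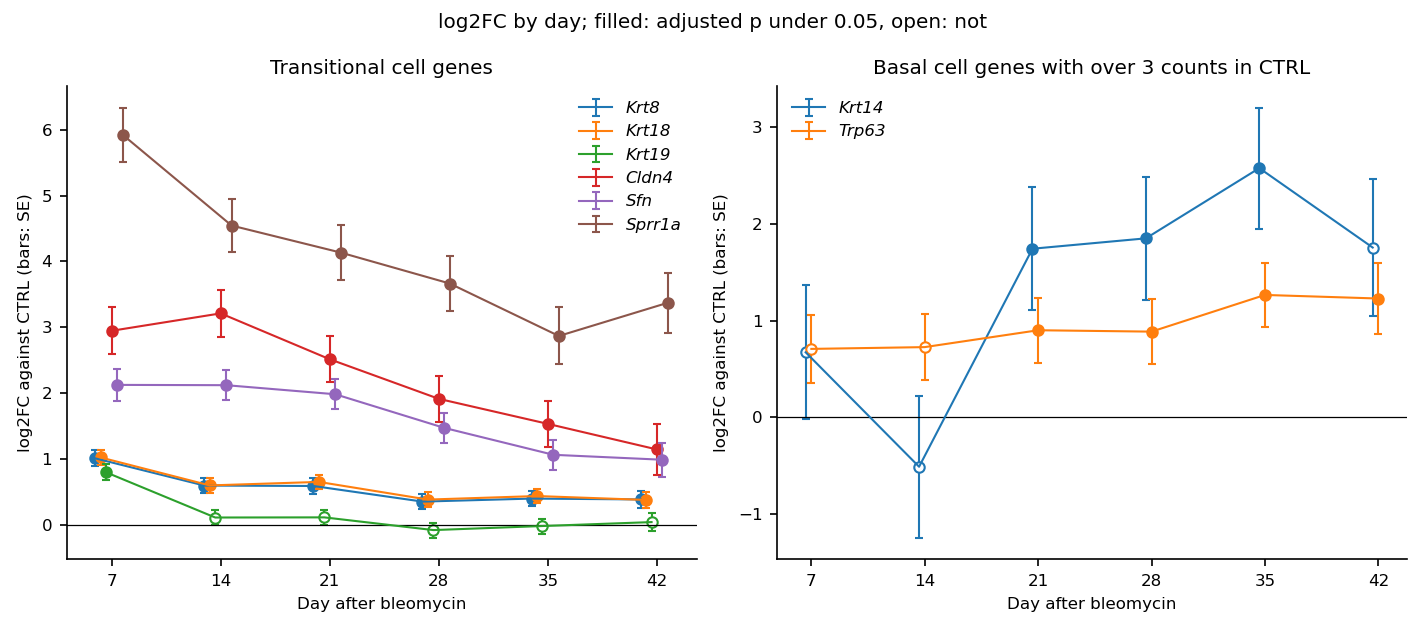
Log2FC against CTRL (vertical axis, bars show the SE) by day after bleomycin for the 6 transitional genes (left) and for *Krt14* and *Trp63* (right). Filled points passed the adjusted test. The log2FC of each transitional gene is smaller on day 42 than on day 7, but not all of them fall at every step. *Krt14* goes from -0.51 on day 14 to 2.58 on day 35. *Krt5* and *Krt17* are left out because CTRL held at most 3 counts of each.

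To ask whether *Krt8* changed relative to epithelium, it was set against *Epcam*, an adhesion molecule of all lung epithelium. The log2 ratio of *Krt8* to *Epcam* was 1.26 ± 0.20 in CTRL mice and 1.93 ± 0.24 on day 7, a difference of 0.67 (adjusted p = 0.00018, permutation test, n = 10 each). It was 0.67 at day 14 and 0.51 at day 21, both passing the permutation test. It was 0.28 at day 28 (permutation, adjusted p = 0.0149), 0.16 at day 35 (adjusted p = 0.182) and 0.04 at day 42 (exact, adjusted p = 0.768). *Epcam* itself was higher than CTRL on days 7, 35 and 42, by 0.33, 0.25 and 0.34 on the log2 scale. Against *Cdh1* (E-cadherin), which passed the test on day 14 only (log2FC -0.21), the ratio stayed raised on day 35 by 0.32 and on day 42 by 0.34 (adjusted p = 0.000926, exact). The result for days 35 and 42 thus depended on the reference gene.

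Most other genes reported for transitional alveolar cells were higher as well. All 18 such genes were tested. This list was chosen with earlier results of these data known, so its counts are a description and no independent support. The numbers higher were 15, 16, 15, 15, 11 and 10 for days 7 to 42, where 24.8%, 32.4%, 28.3%, 24.1%, 16.9% and 13.7% of all tested genes were higher. A single gene was lower at each of days 7 to 35 and 0 at day 42. Their median log2FC was 0.83 on day 7, 1.06 on day 14 and 0.56 on day 42. *Fosl1*, an AP-1 transcription factor subunit, had a log2FC of 3.89 ± 0.56 on day 14 (adjusted p = 1.13e-08) and 1.63 on day 42 (adjusted p = 0.0696). *Cdkn1a*, the p21 cell cycle inhibitor, went from a median of 30.8 CPM in CTRL to 241 CPM on day 14 and 131 CPM on day 42 (log2FC 3.15 and 2.02), and *Gdf15*, a stress cytokine, had 2.87 and 2.07. Several of these genes are also made by cells other than epithelium.

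Markers of the neighbouring epithelial cells moved on the same days, and their part in these results was not tested. The summed level of 8 AT2 genes was 23092 to 28320 CPM in CTRL mice (median 25071) and 6688 to 24816 CPM on day 14 (median 13502), when 6 of the 8 were lower (29.9% of all tested genes), and 25459 to 31891 CPM on day 42, when 1 was higher (13.7%) and 0 lower. *Sftpc*, surfactant protein C, had a log2FC of -0.88 on day 14 and 0.20 on day 42 (adjusted p = 0.521). Of 7 AT1 genes, 4 were lower and 1 higher (32.4% of all tested genes) on day 14, with *Rtkn2* at -0.96 and *Pdpn* at 0.62. The 5 club cell genes summed to 24228 to 32085 CPM in CTRL mice and to 2766 to 18061 CPM on day 14, and the 6 ciliated cell genes to 479 to 665 and 132 to 358 CPM. On day 14, 4 of 5 club genes and 6 of 6 ciliated genes were lower, against the 29.9% of all tested genes. Of 6 general epithelial genes, 3 were lower on day 14 (29.9% of all tested genes), *Grhl2* most at -0.77, and 0 higher (32.4%). All these lists are short, so that their counts are only a rough measure beside the shares. None of these markers was at 0 in a whole group.

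**Figure D3:**
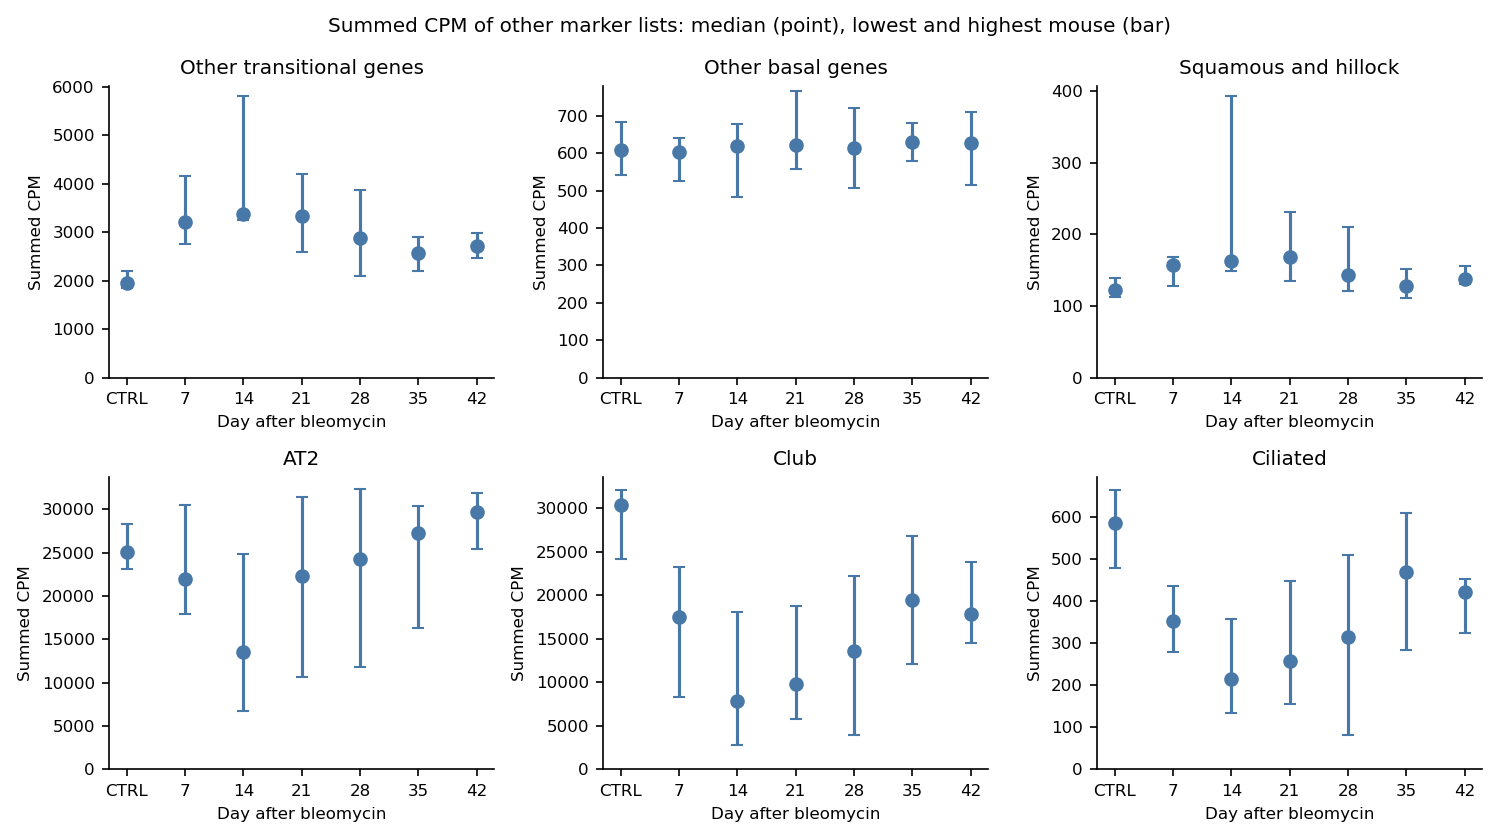
Summed CPM of 6 lists of other marker genes (vertical axes, linear) by group (CTRL and the day after bleomycin), with the median mouse as a point and the lowest and highest mouse as a bar. AT2, club and ciliated genes have their lowest medians on day 14, while the squamous and hillock list has one mouse at 393 CPM that day, where the median is 163 CPM. Without *Ecm1*, the highest mouse of that list on day 14 has 28.8 CPM.

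Of the 4 basal genes, *Krt5* and *Krt17* were almost absent from CTRL lungs, whereas *Krt14* and *Trp63* had counts in every CTRL mouse. *Krt5*, the type II keratin of basal cells, had 3 counts in all 10 CTRL mice together and 4 in all 10 mice of day 7, with at most 1 in any mouse. On day 14 it had 50 counts over 12 mice, of which 30 were in mouse 5. The lowest, median and highest mice of day 21 had 0, 0.810 and 6.53 CPM, and those of day 28 had 0, 0.554 and 10.8 CPM. At day 35 they had 0, 5.46 and 15.9 CPM, and at day 42 they had 0.086, 3.56 and 15.7 CPM. Some mice of every late day thus stayed at the CTRL level while others were far above it. Summed over each group, the ratio to CTRL was 13.6 at day 14 (95% exact counting interval 4.40 to 68.3), 68.99 at day 21 (23.3 to 337) and 75.5 at day 28 (25.5 to 368). It was 209 at day 35 (71.2 to 1016) and 166 at day 42 (56.4 to 811). The intervals cover counting error and not the spread between mice. The floor used for *Krt17* covers counting error on the CTRL side only, and not the spread between mice either. Without day 14 mouse 5 the ratio was 6.03, without day 28 mouse 9 it was 45.7, and without day 42 mouse 1 it was 103. The test passed on days 21, 28, 35 and 42 (adjusted p = 8.84e-05, 9.68e-05, 1.07e-06 and 1.1e-05) and missed on day 14 (adjusted p = 0.0503). *Krt5* entered this test through the late days. In the fit of every gene without the filter, the same 4 days passed, with adjusted p between 9.76e-07 and 0.000138.

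*Krt14*, the partner of *Krt5*, was present in CTRL lungs at 0.090 to 0.859 CPM with a median of 0.543 CPM. The lowest, median and highest mice had 0.102, 0.862 and 1.38 CPM on day 7, and 0, 0.318 and 0.898 CPM at day 14. They had 0.163, 1.59 and 4.48 CPM at day 21 and 0.218, 0.789 and 9.44 CPM at day 28. At day 35 the values were 0, 2.61 and 10.5 CPM, and at day 42 they were 0, 2.18 and 4.54 CPM. Every day overlapped with CTRL. The log2FC was 1.74 ± 0.64 on day 21 (adjusted p = 0.0168), 1.85 ± 0.64 on day 28 (adjusted p = 0.0143) and 2.58 ± 0.63 on day 35 (adjusted p = 0.000935), against -0.51 ± 0.73 on day 14 and 1.76 ± 0.70 on day 42 (adjusted p = 0.057). The day 28 call was lost without mouse 9 (log2FC 1.23, adjusted p = 0.109). Like its partner, *Krt14* entered the test through the late days, and the fit of day 28 and CTRL alone left it untested. Without the filter, days 21, 28 and 35 still passed.

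*Krt17*, a type I keratin of basal and wounded epithelium, had no count in any CTRL mouse. Against the floor of 3 counts over the CTRL group it was at least 4.92-fold higher at day 7, at least 12.8-fold higher at day 14 and at least 35.8-fold higher at day 21. At days 28, 35 and 42 it was at least 35.4-fold, at least 43.8-fold and at least 35.0-fold higher. These are bounds for the CTRL side only, since the counts of each day were taken as exact. All 12 mice of day 14 had at least 1 count, and *Krt17* passed the test from day 14 (adjusted p = 0.00173) to day 42 (adjusted p = 0.000153). It too entered the test through the late days, and without the filter it passed on the same days, with adjusted p between 1.2e-05 and 0.00237. On day 7 the adjusted p was 0.0553. The bounds fell to 2.94 without day 7 mouse 2, 8.14 without day 14 mouse 5, 22.2 without day 28 mouse 9 and 20.2 without day 42 mouse 1. The median mice of days 7 to 42 had 0.092, 0.202, 0.940, 0.528, 1.00 and 0.772 CPM.

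*Trp63*, the transcription factor p63 that defines basal cells, was counted in every CTRL mouse, at 0.629 to 1.25 CPM with 7 to 13 counts. The medians of days 7 to 42 were 1.58, 1.51, 1.68, 1.15, 2.17 and 1.54 CPM, and the highest mice on days 28, 35 and 42 had 4.91, 4.28 and 5.33 CPM. The log2FC was 0.71 ± 0.35 at day 7 (adjusted p = 0.0899) and 0.73 ± 0.34 at day 14 (adjusted p = 0.0548), which missed the threshold. In edgeR fits of the 2 groups alone, both day 7 (adjusted p = 0.0017) and day 14 (adjusted p = 0.0129) passed. It was 0.90 ± 0.34 at day 21 (adjusted p = 0.0192), 0.89 ± 0.34 at day 28 (adjusted p = 0.0273), 1.27 ± 0.33 at day 35 (adjusted p = 0.00217) and 1.23 ± 0.37 at day 42 (adjusted p = 0.0111). The call was lost without mouse 3 on day 21 (log2FC 0.74), without mouse 5 (0.70) or 9 (0.62) on day 28, and without mouse 1 on day 42 (0.84). On day 28 it was also lost without the filter on low counts (adjusted p = 0.0551) and in the fit of the 2 groups alone (adjusted p = 0.0561).

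**Figure D4:**
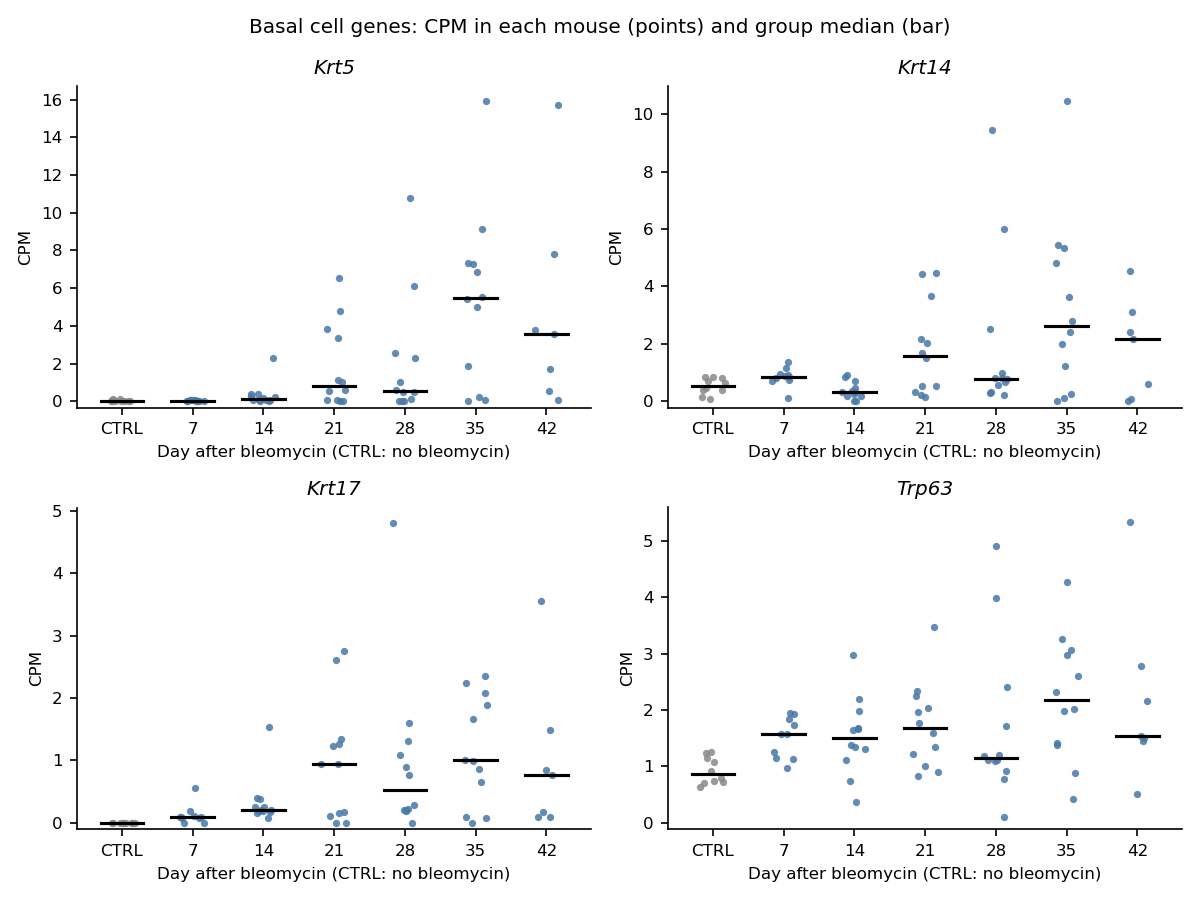
CPM of the 4 basal cell genes (vertical axes, linear) in each mouse, by group (CTRL and the day after bleomycin), with a bar at the group median. On days 21 to 42 single mice reach up to 15.9 CPM of *Krt5* while others stay near the CTRL value of 0, and *Trp63* is present in all CTRL mice.

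The late mice with *Krt5* were mostly those with *Krt17*. Of the 43 mice of days 21 to 42, 31 had more than 3 counts of *Krt5*, 33 of *Krt14* and 27 of *Krt17*, and 26 had more than 3 counts of all 3. None of the 3 passed 3 counts in 8 mice. For *Krt14* this share is no rise, since 8 of 10 CTRL mice and 9 of 10 mice of day 7 also had more than 3 counts of it, and 6 of 12 of day 14. More than 3 counts of *Krt5* were found in 3 of 12 mice at day 14, in 8 of 12 at days 21 and 28, in 9 of 12 at day 35 and in 6 of 7 at day 42, and in 0 of the 20 mice of CTRL and day 7. At this depth a count of 0 does not show that a transcript was absent. The log2 ratio of *Krt5* to *Krt14*, from CPM + 0.5, was higher than in CTRL from day 14 on, by 0.75 on day 14 and 1.79 on day 42 (adjusted p = 0.00264 and 0.000463, permutation tests, exact for day 42), but the CTRL side of this ratio rests on the 3 counts of *Krt5* and on the constant that was added.

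Between day 14 and day 42, 3 transitional genes were lower and a pair of basal keratins was higher. *Cldn4* fell by 2.07 ± 0.38 on the log2 scale (adjusted p = 1.83e-05), *Sprr1a* by 1.17 ± 0.34 (adjusted p = 0.00522) and *Sfn* by 1.13 ± 0.25 (adjusted p = 0.000279), so that 3 of the 10 were lower (18.8% of all tested genes). *Krt5* was higher by 3.67 ± 0.80 (adjusted p = 0.00025) and *Krt14* by 2.27 ± 0.70 (adjusted p = 0.00839), so that 2 were higher (15.2%). Both of these entered the test through the late days, and the fit of the 2 groups alone left them untested. With only 10 genes, neither number called is far from its share of all tested genes. *Krt8* and *Krt18* changed by -0.21 and -0.22 (adjusted p = 0.2 and 0.146), *Krt17* by 1.49 (adjusted p = 0.0917) and *Trp63* by 0.50 (adjusted p = 0.26). Of the steps between consecutive days, day 7 to day 14 had 4 members called, all lower (*Krt8*, *Krt18*, *Krt19* and *Sprr1a*), where 17% of all tested genes were called in either direction. None of the 10 was called on the next 4 steps, where the shares over all genes were 1.03%, 0.727%, 1.27% and 0%, and the smallest adjusted p was that of *Krt14* from day 14 to day 21 (log2FC 2.25 ± 0.63, adjusted p = 0.0535).

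Of 15 other listed basal cell genes 11 were tested. The numbers higher were 4, 2, 2, 2, 3 and 4 for days 7 to 42 and the numbers lower 2, 3, 2, 2, 1 and 0, with a median log2FC of -0.00 at day 42. Of all tested genes, 24.8%, 32.4%, 28.3%, 24.1%, 16.9% and 13.7% were higher on these days, and 21%, 29.9%, 25.8%, 19.2%, 13.1% and 11% lower. On days 14, 21 and 28 both numbers, of 11, were below these shares. On days 7, 35 and 42 the number higher was above its share and the number lower below it. With 11 genes these counts are small. *Pkp1*, a desmosomal plakophilin of stratified epithelium, had a median of 0 CPM in CTRL and of 1.03 CPM on day 35, and passed the test from day 14 on. Its log2FC, 3.80 ± 0.97 on day 14, rests on a CTRL side near 0. Whether *Pkp1* passes the filter on low counts without the bleomycin days was not tested. *Col17a1*, a hemidesmosomal collagen, went the other way with a log2FC of -1.87 ± 0.32 on day 14 (adjusted p = 7.11e-07) and -0.89 on day 42 (adjusted p = 0.0587). *Sox2*, a transcription factor of airway epithelium, had -0.85 on day 14 and -0.25 on day 42. *Itga6*, which is also expressed outside basal cells, held 42.8% of the counts of this list, and the desmoglein gene *Dsg3* was at 0 in all CTRL and day 42 mice.

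Squamous and hillock epithelium shares several of these genes, and 5 of its 13 listed genes were tested. On day 14, 4 of the 5 were higher (32.4% of all tested genes) and 0 lower, and on day 42 it was 2 (13.7%) and 0. *Tgm1*, the transglutaminase that cross-links the cornified envelope, had a median of 3.79 CPM in CTRL, 19.4 CPM on day 14 and 11.8 CPM on day 42 (log2FC 2.44 and 1.87, both called). Without *Ecm1*, which held 87.1% of the list's counts, the list summed to 5.15 to 9.08 CPM in CTRL mice, 21.2 to 28.8 CPM on day 14 and 11.1 to 30.1 CPM on day 42. *Sprr1b*, *Krt6a*, *Krt6b* and *Krt16* were at 0 in all CTRL mice. Of 8 markers of thymus, a tissue whose epithelium also has basal keratins, 3 were tested. On day 14, 1 was higher (32.4% of all tested genes) and 2 were lower (29.9%). On day 35, 0 were higher (16.9%) and 2 lower (13.1%). The 8 markers summed to 3.43 to 30.4 CPM in CTRL mice (median 5.53) and had a median of 6.09 CPM on day 14. They summed to 4.51 to 24.3 CPM on day 28 (median 6.43) and 4.49 to 6.24 CPM on day 35 (median 5.16). Without *Ccl25*, which held 66.6% of the counts of these markers, the median CTRL mouse had 1.23 CPM and the highest 26.3 CPM. *Foxn1* was at 0 in CTRL. Mesothelial genes, whose cells also contain *Krt8*, *Krt18* and *Krt19*, summed to 193 to 385 CPM in CTRL and 257 to 473 CPM on day 7, when 1 of 8 was higher (24.8% of all tested genes). That gene was *Msln*, with a log2FC of 1.14 on day 7 and 1.41 on day 14.

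Among all 50 keratin genes of the table, 13 were tested, and 7 of these lie outside the 10 genes. On day 14, 2 of the 7 were higher and 2 lower, near the shares of all tested genes (32.4% and 29.9%). *Krt7*, a type II keratin of simple epithelium that also belongs to the transitional list, had a log2FC of 0.62 ± 0.10 on day 14 and 0.25 on day 42 (adjusted p = 0.11). *Krt4*, a hillock and squamous keratin, was at a median of 0.05 CPM in CTRL and 0.65 CPM on day 7, and passed the test on all 6 days. The CTRL side of *Krt4* was near 0, and whether it passes the filter on low counts without the bleomycin days was not tested. *Krt79* fell by 3.38 ± 0.41 on the log2 scale on day 14 (adjusted p = 1.39e-10) and remained lower by 2.08 on day 42, and *Krt23* fell by 1.11 on day 14 and had a log2FC of 0.22 on day 42 (adjusted p = 0.564). Of 9 desmosome genes, which anchor keratin filaments, 6 were lower (29.9% of all tested genes) and 2 higher at day 14, and 3 were lower (11%) and 0 higher at day 42, and *Ppl*, which encodes periplakin, had -0.86 and -0.80 on these days.

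Within groups, the transitional genes varied together and the basal genes varied together. Over the 75 mice, as log2 CPM with the group means removed, the 15 pairs of transitional genes had Pearson r between 0.13 and 0.92 with a median of 0.70, and 14 of them passed adjustment over all 45 pairs. The 6 pairs of basal genes had r between 0.62 and 0.87 with a median of 0.73, and all 6 passed. The 24 pairs across the sets had r between -0.29 and 0.47 with a median of 0.18, and 6 passed. *Krt8* and *Krt18* had r = 0.92 and rho = 0.87 (both with permutation p = 1e-05, the smallest that 100000 resamples can give, adjusted p = 2.37e-05 and 2.65e-05) and r = 0.90 without the 2 mice farthest from the median of *Krt8*. *Krt5* and *Krt14* had r = 0.87 and rho = 0.82 with the same p-values, and r = 0.84 without the 2 farthest mice. *Krt8* and *Krt5* had r = -0.00 (permutation p = 0.972) and rho = -0.03 (permutation p = 0.818). *Krt19* and *Cldn4* were the transitional pair that did not pass, with r = 0.13 (permutation p = 0.311, adjusted p = 0.388) and rho = 0.14 (permutation p = 0.266). *Cldn4* had r = 0.38 with *Krt5* and 0.47 with *Krt17*, the highest across the sets (adjusted p = 0.011 and 0.000814). All values share 1 library per mouse, and the basal counts are sparse, so the weak values across the sets are no more than a description. No median r or share of passing pairs was computed for pairs drawn from all tested genes. Whether the values within the sets exceed those of other gene pairs was thus not tested.

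**Figure D5:**
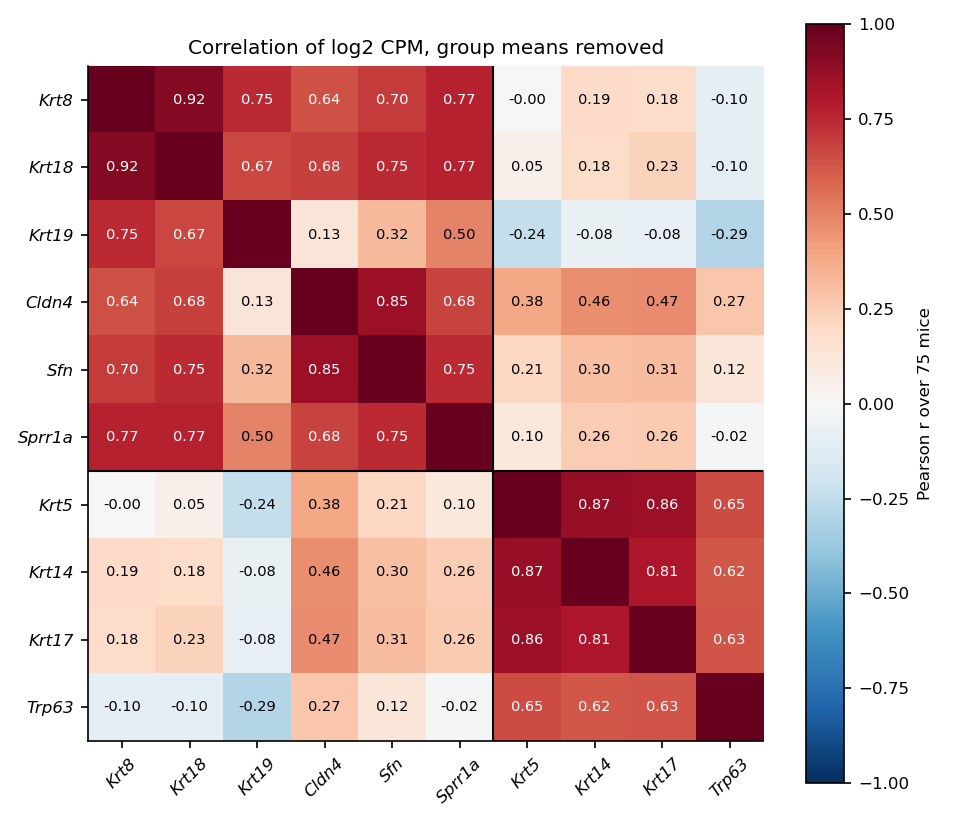
Pearson r between the 10 genes over 75 mice, as log2 CPM with group means removed, on a color scale from -1 to 1 with the value in each cell. The blocks that stand out are the transitional genes (top left, except *Krt19* with *Cldn4* at 0.13) and the basal genes (bottom right, 0.62 to 0.87).

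Among all tested genes, those with the highest r to *Krt8* by the same measure were *Krt18* (0.92), *Anxa2* (0.83), *St14* (0.77), *S100a11* (0.77) and *Sprr1a* (0.77). *Anxa2* encodes annexin A2, *St14* the membrane protease matriptase and *S100a11* a calcium-binding protein, and all 3 were higher than CTRL on every day, with a log2FC on day 7 of 0.52, 0.64 and 0.99 and on day 42 of 0.46, 0.34 and 0.63. Those closest to *Krt5* were *Krt14* (0.87), *Krt17* (0.86), *Pkp1* (0.79), *Serpinb5* (0.78) and *Atp10b* (0.71). *Serpinb5*, which encodes maspin, had a median of 0 CPM in CTRL, 0.25 CPM on day 7 and 1.06 CPM on day 42, and *Atp10b*, a phospholipid flippase, had 0.37, 1.02 and 1.16 CPM. Both passed the test on all 6 days. For *Serpinb5* the CTRL side was near 0, with a log2FC of 2.90 ± 0.92 on day 7 and 4.69 ± 0.82 on day 42. Whether it passes the filter on low counts without the late days was not tested.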

How the data were processed

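RNA sequencing of 75 lung lobes was analysed, with groups taken from the sample labels. Libraries made with a directional kit were read from a single end, and the reads were aligned by the authors with STAR (2.7.0f in the submitters' processing notes) to GRCm38 with the Ensembl 96 genes. The authors deposited raw counts per gene. The counting program and its treatment of strand and multimapping reads are not given in the sources used here, so that reads of *Krt8* and of its antisense gene, or of keratins and their pseudogenes, could be shared. The labels do not state the relation of mice to litters or cages.

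From the counts, CPM, log2FC and tests were computed in R 4.3.3 with edgeR 4.0.16 (TMM factors, filterByExpr, quasi-likelihood F test, 7 group means over all 75 mice, Benjamini-Hochberg over 16221 genes, threshold 0.05). DESeq2 1.42.0, other scalings, other filters, 2-group fits, a replicate block and the removal of each mouse were alternatives. Log2 CPM for correlations used a prior count of 2, with 100000 permutations within groups over 45 pairs. The 18 ratio tests were adjusted together. The floor was 3 counts. Intervals are exact at 95%. Depth (9240291 to 14665247 counts) limits genes near 0. On simulated counts for day 14 against CTRL with 15706 genes tested, 89 of 105 genes changed by 1 and 92 of 95 changed by 2 on the log2 scale were recovered, and 12 unchanged genes were called. No 2 mice of a group were close to identical (lowest chi-square per degree of freedom 3.89 over 375 pairs). Motifs were matched in RefSeq windows of 250 bases before to 50 after a start. Ratios, correlations and figures used Python 3.11.15 (scipy 1.17.1, pandas 2.3.3, matplotlib 3.10.9, numpy 2.4.6).

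The 10 genes and all lists were chosen with earlier results of these data known. *Ctgf* of the transitional list is the Ensembl 96 name of the gene that the study calls *Ccn2*. Named genes are all 10 members and, as examples, genes from the up to 3 of each list with the largest absolute log2FC on day 14, keratins called on day 14, and the 5 genes closest to *Krt8* and to *Krt5* by r. *Epcam*, *Cdh1*, *Itga6*, *Ecm1*, *Dsg3* and the listed genes at 0 were added to these after their values were seen. The correlations over days 21 to 42 and the folds without 1 mouse were also added after the values were seen.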

Additional observations from a re-analysis of the deposited data

Results flagged for a closer look

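Several values stood apart from the rest of their group, by the gap to the nearest mouse relative to the group's range. This was tested in 29 groups of 7 or 10 mice, and chance gives about 1 in 20. The lowest day 7 mouse had 0.102 CPM of *Krt14* (1 count). The highest day 7 mouse had 0.565 CPM of *Krt17* (7 counts), and the highest day 42 mouse 3.56 CPM of *Krt17*, where it held 36 of the 72 counts of its group.

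The change against the same CTRL mice differed between days for 9 results, by the edgeR contrast of the days themselves. Day 42 against day 14 gave a log2FC of -2.07 for *Cldn4*, -1.13 for *Sfn* and -1.17 for *Sprr1a*, against 3.67 for *Krt5* and 2.27 for *Krt14*. Day 14 against day 7 gave -0.41 for *Krt8*, -0.42 for *Krt18*, -0.69 for *Krt19* and -1.38 for *Sprr1a*. Here too, *Krt5* and *Krt14* were in the test through the late days. The cause was not tested.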

How the results depend on the processing

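The numbers of members called higher or lower stayed within 1.5 times of those given, in all alternatives but 3. In fits of only the 2 groups compared, 5 members were higher on day 28, where *Krt5*, *Krt14* and *Krt17* were too low to be tested and *Trp63* missed the threshold, and 0 on day 42 against day 14, where *Krt5* and *Krt14* were not tested. Leaving out 1 mouse at a time gave 5 to 9 members higher on day 42 against CTRL, with 5 when day 42 mouse 1 was left out. No member's log2FC that was called changed direction under any alternative. Among refits of single members, 554 kept their side of the threshold, 14 gained a call and 14 lost one. DESeq2 also called *Krt17* on day 7 (adjusted p = 0.00882), *Krt5* (0.00311) and *Trp63* (0.0475) on day 14, and *Krt14* on day 42 (0.0436). The replicate numbers do not pair the mice, since same-numbered mice of different groups deviated no more alike (median correlation 0.0057) than others (0.0018). With the replicate block, *Trp63* was called on day 14 (log2FC 0.80, adjusted p = 0.0399), and no other call of a member against CTRL changed. Over the mice of days 21 to 42 alone, 41 of 45 correlations stayed within 0.1. With Spearman's rho, 39 of 45 kept their side of the threshold and 6 more passed. Counts near 0 limit *Krt5*, *Krt14* and *Krt17* before day 21.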
